A study of Caenorhabditis elegans with 59 samples.

Results

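The passenger strands of C. elegans miRNA hairpins, the strands whose names end in an asterisk, were followed through a small RNA sequencing study of the ubiquitin ligase EBAX-1. All passenger strands with a value in every library of the developmental time course were taken, which gave 127 of the 310 strands in the miRNA count table. Of the other strands, 176 had a value in every time course library, and 3 passenger entries of edited mir-43 hairpins were left out. The members were chosen by name and not by any measured value.

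The time course compared ebax-1(tm2321), a null allele, with wild type in 2 libraries each of early embryos, late embryos, L1, L2, L3 and L4 larvae and gravid adults, and with glp-4(bn2) controls in adults without a developed germline. The glp-4(bn2) allele, which blocks germline growth at high temperature, was carried by both genotypes of that stage, and these worms were upshifted and kept at 25 °C for 48 h. The 2 embryonic samples lie 6 h apart, the L1 larvae were unfed, and L2, L3, L4 and gravid adult worms had 16, 28, 42 and 68 h on food at 20 °C. Libraries of gravid adults were taken over from an earlier publication. A second allele, ebax-1(ju699), was set against wild type in L1 larvae with 2 libraries each. The strains were N2 for wild type, CZ9907 for ebax-1(tm2321) and CZ9912 for ebax-1(ju699). Double mutants with ebax-1(tm2321) were made by crossing from CZ9907. In that line the study found signs of a second-site mutation, independent of ebax-1, that lowers a set of piRNAs. The last experiment used L4 larvae at 42 h with mir-43 unedited or edited, each with ebax-1(tm2321) and with ebax-1(+), in 3 libraries per genotype except for ebax-1(tm2321) with unedited mir-43, which had 2. The edited forms carry an inverted seed (M1), a random 3′ region (M2) or the 3′ region of miR-82 (M3), with matching changes on the passenger side.

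A miRNA hairpin is cut into a short duplex, of which the guide strand is kept by an Argonaute protein while the passenger strand is usually lost within a short time. A passenger strand therefore reports mostly on hairpins processed recently, whereas a guide level also reflects how long the guide lasts. EBAX-1 is the worm ortholog of ZSWIM8, a substrate receptor that marks Argonaute for degradation and so shortens the life of the guides it holds, and passenger strands serve in such studies as a readout of miRNA production.

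Depth ranged over 1343153 to 20538418 miRNA counts per library in the time course, 2433129 to 3076485 with ju699 and 302789 to 16014208 in the mir-43 strains. Values are given as counts per 1000000 miRNA counts of a library (CPM). The shallowest library, of ebax-1(tm2321); mir-43(M3) worms, is replicate 2 of its group. Replicates differed widely in some groups, with summed passenger shares of 0.690% and 0.947% in the wild-type gravid adult libraries. The wild-type guides that mark stages behaved by stage, with mir-35, an embryonic miRNA, at 58690 CPM in early embryos and 191 CPM in L3 larvae, and let-7, a late larval miRNA, at 5.19 CPM in early embryos and 12752 CPM in L4 larvae. Guides of neurons (lsy-6, mir-124), muscle (mir-1), glia (mir-228) and intestine (mir-60-3p) were counted at all 7 stages. The worms were sequenced whole, so fewer cells of a type and less of a strand per cell cannot be told apart. The study calls its replicates biological, the labels only number them, and p-values measure the spread between these libraries.

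Most passenger strands were rare. Over the 14 wild-type libraries 26 averaged at least 100 CPM, 45 averaged 10 to 100 CPM, 32 averaged 1 to 10 CPM and 24 stayed under 1 CPM. The median passenger strand stood at 28.4 CPM, against 173 CPM for the other strands. In the time course 78 members were counted in all 32 libraries, 1 in none, and 91 to 122 in any single library.

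The 10 most abundant members held 45.3% of all passenger CPM. In order of mean CPM these were mir-52* at 760, mir-34* at 525, mir-71* at 387, mir-58* at 368, mir-80* at 366, mir-46* at 362, mir-72* at 294, mir-47* at 273, mir-2* at 253 and mir-238* at 247. They reached that rank in different ways. mir-52*, from a hairpin on chromosome IV (positions 14034008 to 14034107, WBcel235), made up 0.391% of the counts of its pair, its guide being among the most abundant worm miRNAs. mir-34*, from chromosome X (2969752 to 2969848), made up 17.0% of a much rarer pair whose guide is known for roles in stress and ageing.

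Across the 123 pairs with at least 100 counts the median passenger share of the pair was 1.18%. It was under 1% in 54 pairs and over 10% in 15. Among all pairs, those under 100 counts included, the strand named as passenger had more counts than its partner in 7: mir-4816* (76.7% of the pair), mir-1020* (59.8%), mir-800* (67.7%), mir-1832* (73.7%), mir-2208b* (78.0%), mir-1828* (86.7%) and mir-1833* (100% of 4 counts). Of these, mir-4816* and mir-1020* averaged 45.7 and 34.8 CPM and the other 5 stayed under 5 CPM. The annotation placed 122 of the 127 hairpins, and 41 members lay in clusters with less than 10 kb between neighbouring hairpins. Some entries are not single loci: per the study mir-1829b* has the same sequence as mir-1829c*, and its mir-44 entry also takes in the identical guide of mir-45, so that mir-45* is paired with that entry here.

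The first question was how large the passenger pool was at each wild-type stage. Passenger strands made up 1.24% ± 0.0394 of miRNA counts in early embryos and 0.867% ± 0.0291 in late embryos. In larvae they made up 0.508% ± 0.0255 at L1, 0.670% ± 0.0411 at L2, 0.862% ± 0.00342 at L3 and 0.961% ± 0.0248 at L4, and in gravid adults 0.818% ± 0.182 (SD, n = 2 each). The pool was largest in early embryos and smallest in starved L1 larvae. The 7 stages differed more than their replicates, with F = 18.7 and p = 0.0012 by an exact permutation test over 135135 partitions of the 14 libraries.

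**Figure D1:**
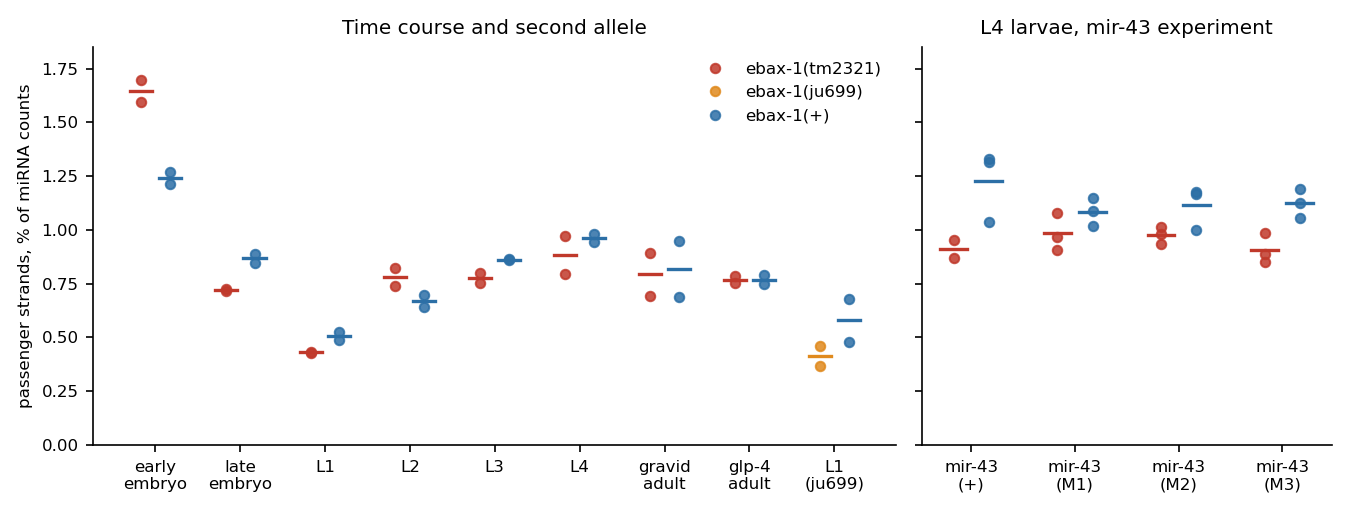
Summed passenger strands as a percent of all miRNA counts (vertical axis) for each library (points) and group mean (lines), with ebax-1(tm2321) or ebax-1(ju699) left of its control at each stage and in each mir-43 strain. In early embryos the ebax-1(tm2321) libraries, at 1.59% and 1.70%, lie above the wild-type libraries at 1.21% and 1.27%, and in L1 larvae the highest library of the time course is at 0.526%.

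The leading strands of the pool differed between stages. The 6 passenger strands of the mir-35–41 cluster in the table, mir-35* to mir-40*, held 27.0% of passenger CPM in wild-type early embryos and 2.74% in late embryos. mir-52* was the top strand of both embryonic stages, with 13.6% and 20.0% of passenger CPM, and of L2 larvae, with 8.51%. mir-71* led in L1 and L3 larvae, mir-80* in L4 larvae and mir-34* in gravid adults, where it held 19.7%.

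Nearly every passenger strand changed over wild-type development. Of the 127 members 84 passed the filter on low values (a mean CPM + 1 of at least 5), and 80 of those passed the F-test over 7 stages, where 96.5% of all strands tested did (edgeR quasi-likelihood test, Benjamini-Hochberg adjusted p under 0.01, used throughout). The 4 that did not pass were mir-46*, mir-254*, mir-787* and mir-4816*. mir-46* was the steadiest abundant member, at 211 and 285 CPM in early embryos and 469 and 434 CPM in gravid adults. Peak stages were spread unevenly, with 21 members highest in early and 22 in late embryos, 4 at L1, 2 at L2, 9 at L3, 18 at L4 and 8 in gravid adults. The guides of the same 84 hairpins peaked in L1 larvae in 24 cases and in gravid adults in 17, and passenger and guide shared their peak stage in 36 hairpins and not in 48.

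**Figure D2:**
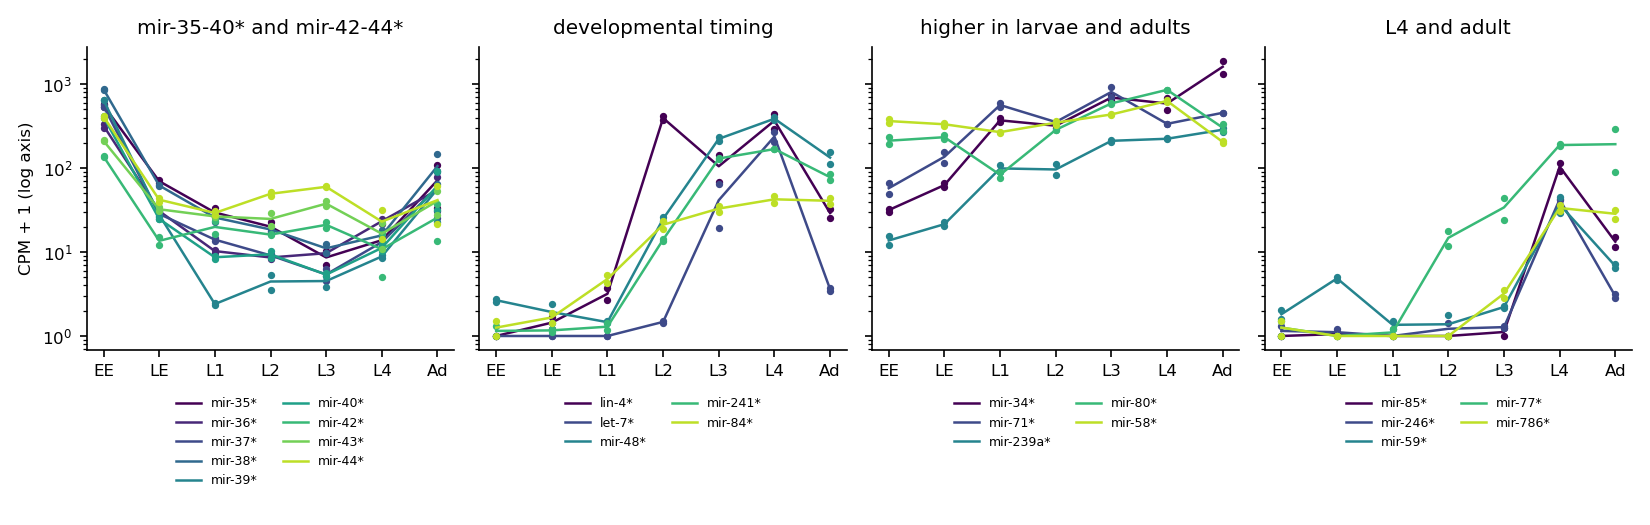
CPM + 1 on a log axis of named passenger strands in the 14 wild-type libraries (points; lines join stage means), from early embryo (EE) and late embryo (LE) to gravid adult (Ad). The cluster strands sit between 135 and 883 CPM in early embryos and at 72.2 CPM or lower in late embryos, while let-7* is at 271 and 203 CPM in L4 larvae and at 2.45 and 2.78 CPM in gravid adults.

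Between early and late embryos the passenger strands of the embryonic clusters fell. Late embryos had 17 members higher and 18 lower than early embryos, where 25.2% and 17% of all strands tested were called in those directions. Without early embryo replicate 1, 21 members were called. All 6 tested strands of the mir-35–41 cluster fell (median log2 fold change −4.04, against 0.20 over all strands), as did the 3 strands of the mir-42–44 cluster (median −3.40). These hairpins lie on chromosome II, mir-35 to mir-40 between 11537608 and 11538275 and mir-42 to mir-44 between 11889811 and 11890118, and the mir-35 family is needed for embryonic development.

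mir-39* had 27.5 and 26.1 CPM in late embryos, against 646 and 649 CPM in early embryos. Its log2 fold change was −4.67 ± 0.46 (SE), while the guide mir-39 changed by −1.01. mir-38* had 60.2 and 62.0 CPM in late embryos, against 883 and 858 CPM in early embryos. The cluster guides fell too, by 0.96 (mir-40) to 1.59 (mir-38) on the log2 scale, less than their passenger strands in each of the 6 hairpins. For the mir-42–44 cluster, mir-42* fell by 3.51 on the log2 scale and its guide had a log2 fold change of −0.37 that did not pass. Members higher in late embryos were led by mir-59* (2.24), mir-70* (2.01), mir-1820* (1.66), mir-235* (1.62) and mir-1822* (1.51 on the log2 scale). mir-59* rests on few counts, with means of 0.814 CPM in early and 3.85 CPM in late embryos.

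Hatching into starved L1 larvae came with the broadest loss. L1 larvae had 12 members higher and 43 lower than late embryos, where 27% and 28.3% of all strands tested were called. The median member changed by −1.13 on the log2 scale, against −0.08 over all strands and 0.23 over the strands that are not members. Among the 55 members called, the guide moved the same way in 16, the opposite way in 11 and was not called in 28.

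mir-52* had 141 and 138 CPM in L1 larvae, against 1753 and 1724 CPM in late embryos. That was a log2 fold change of −3.79 ± 0.22, and its guide changed by −0.27, which did not pass. The strand at the top of the embryonic pool was thus more than 10-fold lower, with libraries far apart, beside a guide level that did not pass the test. Of the 6 passenger strands of the miR-51 family, which are broadly expressed embryonic miRNAs, 5 fell and mir-53* did not pass (family median −2.02 on the log2 scale, −0.08 over all strands). mir-67*, from a neuronally expressed hairpin, had 4.54 and 7.12 CPM in L1 larvae, against 82.0 and 82.1 CPM in late embryos (log2 fold change −3.94, guide −0.54). mir-2* fell by 1.48 on the log2 scale while its guide rose by 0.61. mir-39* fell further (−4.39), and mir-81* (−3.62) and mir-59* (−3.46) fell with guides that were not called. These 3 were near the floor at L1, with means of 1.40, 3.61 and 0.358 CPM, and mir-59* was already at 3.85 CPM in late embryos.

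A small group rose in L1 larvae. mir-34* had 350 and 390 CPM there, against 64.8 and 58.8 CPM in late embryos (log2 fold change 2.44 ± 0.20, guide 3.98). Of the 5 tested passenger strands from hairpins linked to stress and ageing, 4 rose with a list median of 2.12 against −0.08 over all strands, among them mir-238* (2.22) and mir-239a* (2.12). mir-84* and mir-230* rose by 2.33 each, having been under 1 CPM in late embryos.

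In fed larvae the passenger strands of several heterochronic miRNAs, which time larval cell fates, rose. L2 larvae had 20 members higher and 4 lower than L1 larvae (21.3% and 12.2% of all strands), and L3 larvae had 14 higher and 10 lower than L2 larvae (19.6% and 21.3%). With scaling by total counts the L3 split was 17 higher and 7 lower. In each of these comparisons 15 members were called without replicate 1 of either stage. Of the 5 tested members of the developmental timing list, 4 rose in L2 larvae, with a median of 5.44 against 0.00 over all strands.

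lin-4*, from chromosome II (5902254 to 5902347), had 0 and 0 CPM in early and 0.217 and 0.668 CPM in late embryos. It had 1.65 and 2.71 CPM at L1, 417 and 370 CPM at L2, 67.0 and 142 CPM at L3, 288 and 446 CPM at L4 and 31.9 and 24.4 CPM in gravid adults. It rose by 7.44 ± 0.46 on the log2 scale in L2 larvae and fell by 2.08 in L3 larvae, where its guide changed by −0.06. The passenger strand was thus high in L2, lower in L3 and high again in L4 larvae, with no overlap between replicates of neighbouring stages, whereas the guide had stage means between 19512 and 23422 CPM from L2 to L4. mir-48* had 22.3 and 25.3 CPM in L2, 210 and 235 in L3 and 369 and 405 CPM in L4 larvae. mir-241*, a let-7 family strand like mir-48*, rose by 5.44 in L2 and by 3.16 in L3 larvae on the log2 scale.

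let-7* was listed at 0 in all embryonic and L1 libraries of wild type. It had 0.438 and 0.507 CPM in L2, 18.2 and 62.8 in L3 and 271 and 203 CPM in L4 larvae, and 2.45 and 2.78 CPM in gravid adults. Its log2 fold change was 6.16 ± 0.81 in L3 larvae over L2 and 2.67 ± 0.43 in L4 over L3. mir-81* rose by 3.54 in L2 larvae with a guide at 0.06, and mir-72* fell by 1.28 with a guide at −0.02 on the log2 scale.

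L4 larvae had 18 members higher and 7 lower than L3 larvae (24.3% and 14.3% of all strands). mir-85* had 92.4 and 114 CPM in L4, against 0 and 0.231 CPM in L3 larvae. mir-246* had 41.6 and 41.3 CPM in L4, against 0.319 and 0.231 CPM in L3 larvae. Both rose with their guides, mir-85 by 9.66 and mir-246 by 6.65 on the log2 scale. mir-229* fell by 2.15 on the log2 scale with a guide that did not pass (0.34), and mir-71* fell by 1.19 with its guide (−1.38).

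Several heterochronic and miR-58 family strands fell after the L4 stage. Gravid adults had 11 members higher and 31 lower than L4 larvae (14.3% and 25.7% of all strands), and with scaling by total counts 16 higher and 27 lower. Where only the L4 and adult libraries were fitted, 14 members were called, all lower. let-7* showed the largest fall, by 6.66 ± 0.52 on the log2 scale, with its guide at −0.50, which did not pass. lin-4* fell by 3.91 and mir-81* by 3.55, also with guides that did not pass. mir-246* fell by 4.58 and mir-85* by 3.28 while their guides rose, by 0.98 and 0.75. All 4 tested strands of the miR-58 family fell (median −1.76, −0.04 over all strands), among them mir-80* with 332 and 273 CPM in gravid adults, against 860 and 852 CPM in L4 larvae.

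The embryonic cluster strands were higher in gravid adults, which carry embryos. Of the 6 tested strands of the mir-35–41 cluster 5 rose (median 2.27, −0.04 over all strands), led by mir-38* with 145 and 64.5 CPM in gravid adults, against 17.4 and 12.2 CPM in L4 larvae (log2 fold change 2.59 ± 0.30). mir-39*, mir-40*, mir-35* and mir-37* rose by 2.57, 2.33, 2.21 and 2.02 on the log2 scale. The replicate adult libraries differed 2-fold or more for several of these strands, with replicate 1 higher. mir-34*, at 1901 and 1323 CPM in gravid adults, against 496 and 679 CPM in L4 larvae, also rose.

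Apart from a pseudocount of 1 CPM, the ratio of passenger to guide within a hairpin does not depend on how libraries are scaled. It changed over the wild-type stages in 77 of the 82 pairs with both strands at a mean of at least 5 CPM (93.9%, limma moderated F-test on log2 ratios of CPM + 1, Benjamini-Hochberg adjusted p under 0.01). The median pair had 2.48 passenger strands per 100 guides in early and 2.30 in late embryos, 0.925 at L1, 0.974 at L2, 1.12 at L3, 1.37 at L4 and 0.805 in gravid adults. The ratio was highest in early embryos for 38 pairs and in late embryos for 20. Some of these maxima rest on the pseudocount, the passenger strand being near 0. In early embryos these include mir-85* (0 CPM), mir-77* and mir-84* (0.258 CPM each). In late embryos they include let-7* (0 CPM), mir-246* (0.109 CPM), lin-4* (0.443 CPM) and mir-230* (0.604 CPM). It was lowest in gravid adults for 28 pairs and in L1 larvae for 25. The median span over stages was 2.57 on the log2 scale.

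The 5 largest spans among the pairs that passed belonged to let-7* (9.59), mir-85* (8.11), mir-246* (7.89), lin-4* (7.51) and mir-36* (5.63 on the log2 scale). For the first 4 the passenger strand is at or near 0 in embryos, so the early ratio is set by the pseudocount of 1 CPM. Within the stages where both strands were counted, the log2 ratio of let-7* was −3.76 in L3, −5.76 in L4 and −11.5 in gravid adults. mir-36* had a low ratio in late embryos, with −7.54 in early embryos, −9.99 in late embryos and −4.36 in L3 larvae. All 6 pairs of the mir-35–41 cluster had their lowest ratio in late embryos, and their highest in L3 larvae except for mir-37*, which was highest in gravid adults. mir-4816* stayed above its partner at each of the 7 stages, with log2 ratios of 1.09 to 2.23.

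**Figure D3:**
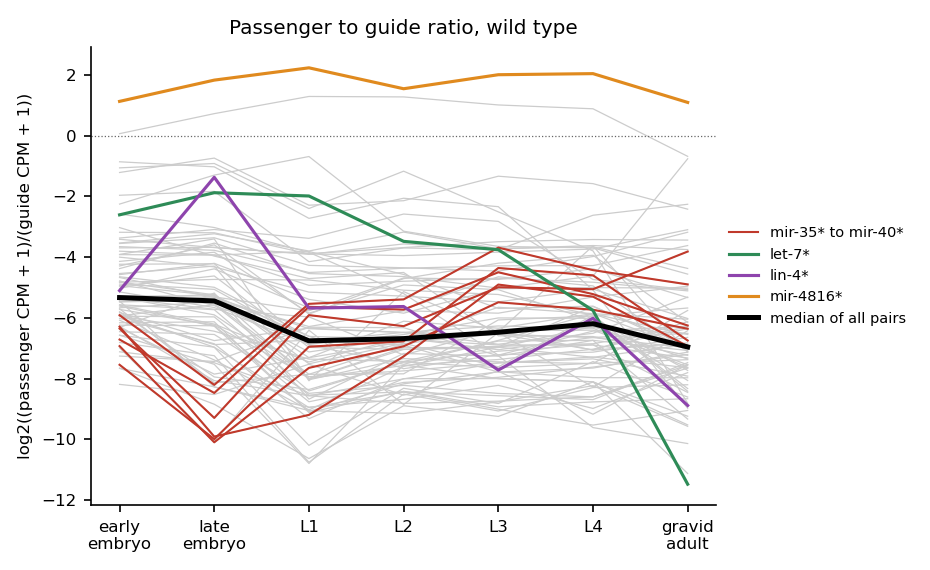
log2((passenger CPM + 1)/(guide CPM + 1)) in wild type at 7 stages, 1 line for each of 82 hairpins with named hairpins in colour and the median of all pairs in black. The median is −5.33 in early embryos, −6.76 in L1 larvae and −6.96 in gravid adults, the cluster pairs dip in late embryos, and let-7* drops to −11.5 in gravid adults.

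Loss of ebax-1 was then compared with its control at each stage. Summed over members, the pool was 1.65% ± 0.0744 in ebax-1(tm2321) early embryos and 1.24% ± 0.0394 in wild type (SD, n = 2 each), with no overlap. It was lower in ebax-1(tm2321) late embryos, at 0.719% ± 0.00716, against 0.867% ± 0.0291, in L1 larvae, at 0.430% ± 0.00505, against 0.508% ± 0.0255, and in L3 larvae, at 0.777% ± 0.0343, against 0.862% ± 0.00342. In L2 larvae it was higher, at 0.780% ± 0.0599, against 0.670% ± 0.0411. The libraries overlapped in L4 larvae, gravid adults and glp-4(bn2) adults. Over the 8 stages the mean difference was 0.0129 percentage points (p = 0.736, exact permutation test within stages, two-sided, 1679616 arrangements). With 2 libraries a group no single stage can pass such a test.

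The total behind these shares includes the guides of the 22 EBAX-1-sensitive miRNAs named in the study, which were chosen on these libraries. Because they were chosen for rising in the mutant, leaving them out of the total moves the difference up by construction, to a mean of 0.183 percentage points over the stages. A smaller total also raises every share and so widens a difference, most where these guides are abundant, as in early embryos. Of the single stages, early embryos then had a difference of 1.096 percentage points and the other 7 had −0.0321 (late embryos) to 0.255 (L2 larvae).

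Early embryos were the only stage of the time course where more than 6 members were called. Of 74 members tested, 24 rose in ebax-1(tm2321) and 0 fell, where 15.5% and 3.4% of all strands tested were called (DESeq2 called 22 and 0, and 3 members had a lower value at unadjusted p under 0.05). The median member changed by 0.36 on the log2 scale, against −0.05 over all strands and −0.16 over the strands that are not members. The 24 changes were small, from 0.45 (mir-37*) to 1.23 (mir-70*), with a median of 0.68. The guide was also called higher in 4 of the 24 hairpins, lower in 1 and not called in 19. Leaving out either ebax-1(tm2321) library left 0 calls, leaving out wild-type replicate 1 or 2 left 14 and 16, scaling by total counts gave 15, all higher, and a fit that shared its spread over all 32 libraries gave 0.

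mir-70* had 58.1 and 56.2 CPM in ebax-1(tm2321) early embryos, against 26.2 and 25.3 CPM in wild type. mir-56*, of the miR-51 family, had 519 and 493 CPM, against 281 and 259 CPM, while its guide fell by 0.35 on the log2 scale. mir-52* had 2537 and 2379 CPM in the mutant, against 1541 and 1837 CPM in wild type (log2 fold change 0.63 ± 0.13, guide −0.07). Both genotypes were well separated in each case. Across the miR-51 family 4 of 6 passenger strands rose (median 0.59, −0.05 over all strands). Other members that rose were mir-64* (0.99), mir-4813* (0.98), mir-86* (0.88) and mir-71* (0.88 on the log2 scale), and mir-1*, of a muscle hairpin (0.67), and mir-124*, of a neuronal hairpin (0.82), rose with guides that were not called.

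The embryonic clusters were among the strands that rose. mir-39* had 815 and 1060 CPM in the mutant, against 646 and 649 CPM in wild type (log2 fold change 0.64 ± 0.14, guide 0.17). In the mir-35–41 cluster 4 of 6 passenger strands rose (median 0.49), and mir-38* (0.32) and mir-36* (0.44) did not pass. mir-44* had 541 and 599 CPM in the mutant, against 422 and 397 CPM in wild type, and mir-42* and mir-43* rose as well, so that all 3 strands of that cluster did (median 0.69).

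**Figure D4:**
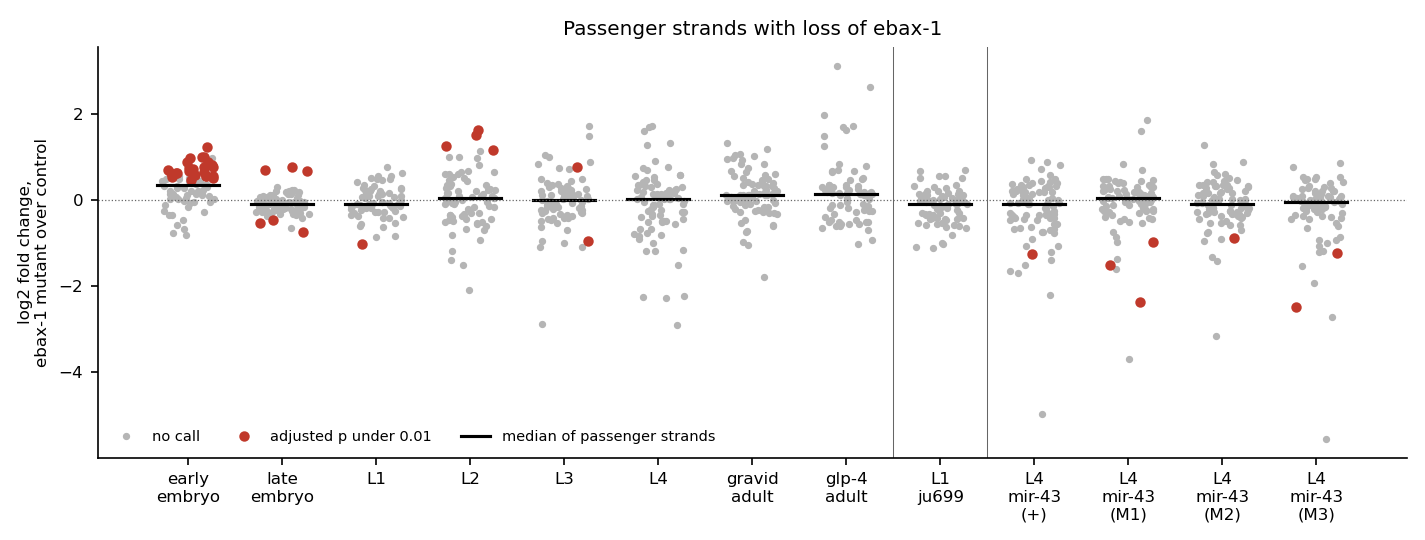
log2 fold change of each tested passenger strand with loss of ebax-1 (1 point per strand) by stage, for the ju699 allele in L1 larvae, and in the 4 mir-43 strains, where mir-43* in the edited strains and mir-42* in M2 and M3 are left out. Larger red points have an edgeR adjusted p under 0.01 and black lines are medians. The early embryo column holds 24 red points, all above 0, with a median of 0.36, and no later column holds more than 6.

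Later stages held few calls. Late embryos had 3 members higher and 3 lower of 74 tested (13.4% and 4.98% of all strands). mir-71* had 188 and 194 CPM in ebax-1(tm2321) late embryos, against 156 and 115 CPM in wild type, and rose by 0.68 with its guide (0.92 on the log2 scale). mir-239a* (0.71) and mir-787* (0.77) rose, and mir-67* (−0.46), mir-790* (−0.54) and mir-1829b* (−0.74) fell. Scaling by total counts, which moved the median of all strands to −0.19 on the log2 scale, gave 3 higher and 26 lower. Without ebax-1(tm2321) replicate 2, 3 members were called.

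In L1 larvae mir-232* fell, with 20.2 and 20.2 CPM in ebax-1(tm2321), against 48.3 and 44.9 CPM in wild type (log2 fold change −1.02 ± 0.13). It was the single call among 70 members tested, 0 of which rose (7.25% of all strands rose and 0.966% fell). DESeq2 called 1 higher and 3 lower, and scaling by total counts 2. The mir-232* call was lost without either wild-type library, and 3 members were called without ebax-1(tm2321) replicate 1. In L2 larvae 4 of 74 members rose and 0 fell (6.25% and 1.92% of all strands). They were the 3 strands of the mir-42–44 cluster (median 1.52, −0.03 over all strands) and mir-72*. mir-42* had 49.2 and 40.3 CPM in the mutant, against 15.3 and 14.9 CPM in wild type (log2 fold change 1.62 ± 0.29, guide 0.55, not called). mir-43* had 53.2 and 80.2 CPM, against 19.3 and 28.4 CPM. mir-44* (1.25) and mir-72* (1.15 on the log2 scale) were likewise apart. No member was called in L2 larvae without either wild-type library or without ebax-1(tm2321) replicate 1, and 1 was called with scaling by total counts. DESeq2 called 6 higher and 1 lower.

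L3 larvae had 1 member higher, mir-53* (0.76), and 1 lower, mir-1020* (−0.94), of 78 tested (8.29% and 2.76% of all strands). With scaling by total counts mir-1020* alone was called, and DESeq2 called 3 higher and 3 lower. Without ebax-1(tm2321) replicate 1, 10 members were called, and without any of the other 3 libraries 0. In L4 larvae 0 of 82 members were called, where 5.38% and 0% of all strands were. At unadjusted p under 0.05 there were 4 higher and 14 lower, and DESeq2 called 2 and 4. Without ebax-1(tm2321) replicate 1, 1 member was called. In gravid adults 0 of 82 were called (0.448% and 0% of all strands), 0 and 3 passed unadjusted, and DESeq2 called 0. Without wild-type replicate 1, 1 member was called. The 6 strands of the mir-35–41 cluster had a median of 1.02 on the log2 scale in these adults, none passing (0.03 over all strands). In glp-4(bn2) adults 0 of 72 were called (5.83% and 0% of all strands), 11 and 3 passed unadjusted and DESeq2 called 4, all higher. Leaving out 1 glp-4(bn2) library at a time gave 2 to 13 calls, the most without ebax-1(tm2321) replicate 1.

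The ju699 allele in L1 larvae gave 0 calls among 73 members (4.65% and 0% of all strands), with 1 higher and 4 lower at unadjusted p under 0.05 and 1 lower by DESeq2. The summed share was 0.414% ± 0.0679 in ebax-1(ju699) and 0.580% ± 0.142 in wild type (SD, n = 2 each), and p = 0.333 was the smallest that an exact permutation test of 2 against 2 can give. The effects of the 2 alleles in L1 larvae differed for 0 members in an edgeR interaction test (0% of all strands, 8 members at unadjusted p under 0.05).

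Counted over the 8 stages, 98 members were tested at 1 or more stages, 55 at all and 29 at none. Of 606 tests 32 were higher and 5 lower, or 5.28% and 0.825%, against 7.69% and 1.71% of the 1691 tests of all strands. Early embryos held 24 of these 37 calls. The calls fell on 32 members, 5 of which were called at more than 1 stage.

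A single genotype effect averaged over the 8 stages was higher for 4 of 84 members and lower for 2 (9.61% and 6.55% of all strands). With scaling by total counts 0 were higher and 5 lower, so the higher calls depend on the scaling. Without the glp-4(bn2) stage 3 members were called. Over the 8 stages and ju699, that scaling put the median of all strands at −0.03 (glp-4(bn2) adults) to −0.31 (ju699), against −0.05 to 0.03 with TMM, on the log2 scale. The 4 were lin-4* (1.12 ± 0.31), mir-44* (0.73 ± 0.20), mir-38* (0.69 ± 0.16) and mir-52* (0.51 ± 0.12 on the log2 scale). mir-38* was higher in the mutant mean at 8 of 8 stages. Its guide changed by 3.15 in the same fit, and mir-52 by −0.06. The 2 lower members were mir-1020* (−0.72 ± 0.13) and mir-63* (−0.35 ± 0.09), and mir-63* was lower in the mutant mean at each of the 8 stages.

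The effect of ebax-1(tm2321) differed between stages for 1 member, mir-53* (edgeR interaction, adjusted p = 0.00252, 11.4% of all strands passed). DESeq2 called 20 and scaling by total counts 2. mir-53* had 129 and 149 CPM in ebax-1(tm2321) early embryos, against 113 and 89.8 CPM in wild type. In L2 larvae it had 48.4 and 66.7 CPM in the mutant, against 86.7 and 75.5 CPM in wild type. In L3 larvae it had 64.8 and 64.9 CPM in the mutant, against 43.7 and 39.7 CPM in wild type, and in glp-4(bn2) adults 31.5 and 30.9 CPM, against 17.9 and 19.3 CPM. It was thus lower in the mutant in late embryos, L1 and L2 larvae and higher at the other 5 stages by mean. Its hairpin lies on chromosome IV (11027593 to 11027691), in a cluster with mir-51.

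The guides of the 22 EBAX-1-sensitive miRNAs were chosen by the study on these libraries, so that only their passenger strands are results here. Of these, 20 are counted below, with mir-44* taken for miR-44/45. The second passenger strand of that entry, mir-45*, was tested at all 8 stages and called at none, and is not counted. Guides are counted below only where their passenger strand was tested. Of all strands tested, 15.5% rose in early and 13.4% in late embryos, 7.25% at L1, 6.25% at L2, 8.29% at L3 and 5.38% at L4. In gravid and glp-4(bn2) adults 0.448% and 5.83% rose, and with ju699 4.65%. In late embryos 1 of 15 tested passenger strands rose beside 14 guides, with medians of −0.17 and 0.92 on the log2 scale. In L1 larvae 0 of 14 rose beside 11 guides (medians −0.13 and 1.29), in L3 larvae 0 of 17 beside 11 (−0.36 and 1.31), in L4 larvae 0 of 18 beside 10 (0.01 and 2.01) and in glp-4(bn2) adults 0 of 11 beside 6 (0.49 and 1.99). In ebax-1(ju699) L1 larvae 0 of 14 rose beside 7 guides (−0.06 and 1.39). In early embryos 10 of 15 passenger strands rose beside 6 guides (medians 0.52 and 0.29), at a stage where 24 of all 74 tested members rose. In L2 larvae 3 of 15 rose beside 6 guides (0.50 and 0.65). In gravid adults 0 of 18 tested passenger strands and 0 of their 18 guides were called, with medians of 0.71 and 1.41. The study, with its own noise model, did call EBAX-1-sensitive miRNAs in these adults.

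mir-1020*, the more abundant arm of a mirtron, a hairpin released by splicing, on chromosome III (10047746 to 10047815), was low in ebax-1(tm2321) worms of several experiments. All of these took the allele from the same line, so loss of ebax-1 and the background of that line cannot be told apart in them. In L3 larvae mir-1020* had 44.8 and 37.8 CPM in ebax-1(tm2321), against 81.2 and 90.1 CPM in wild type. In L2 larvae it had 13.6 and 17.9 CPM, against 36.8 and 37.2 CPM, and in L4 larvae 41.3 and 41.1 CPM, against 65.4 and 80.4 CPM. The libraries did not overlap at any of the stages from L1 larvae to adults. Its partner strand mir-1020 fell too in L3 larvae (−1.11) and in the averaged fit (−0.79 on the log2 scale). With the ju699 allele it had 18.5 and 15.3 CPM, against 28.6 and 31.6 CPM in wild type, a difference that did not pass the edgeR test.

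The 4 mir-43 strains gave another set of L4 libraries with ebax-1(tm2321), with the allele from the same line. mir-1020* fell in all 4. With unedited mir-43 it had 64.7 and 75.4 CPM in ebax-1(tm2321), against 158, 163 and 228 CPM in ebax-1(+) (log2 fold change −1.25 ± 0.23). With mir-43(M1) it had 62.1, 67.9 and 82.5 CPM, against 121, 180 and 156 CPM. With mir-43(M2) it had 64.0, 68.4 and 77.1 CPM, against 117, 127 and 174 CPM, and with mir-43(M3) 63.1, 52.8 and 81.8 CPM, against 177, 152 and 177 CPM. Every ebax-1(tm2321) library lay below every ebax-1(+) library of this experiment.

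It was the single call among 84 members with unedited mir-43 and with mir-43(M2), and 0 members rose in any of the 4 strains. The 84 include mir-43*, which was at 0 in all edited libraries and could not be called there. They also include mir-42*, at 1.43 CPM or lower in the M2 and M3 libraries. The shares of all strands that rose and fell were 4.35% and 1.3% with unedited mir-43, 6.09% and 3.48% with M1, 5.22% and 2.17% with M2 and 5.65% and 7.39% with M3. mir-786* fell in M1, with 2.98, 3.93 and 4.67 CPM, against 20.6, 20.6 and 24.2 CPM in mir-43(M1) alone (log2 fold change −2.36 ± 0.56), and in M3 (−2.49 ± 0.64), where 1 mutant library was at 0. mir-1819* fell in M1 (−1.51). DESeq2 called 6, 3, 3 and 7 members in the 4 strains, of which 2, 0, 2 and 0 were higher.

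The paired libraries of M2 and M3, fitted with the replicate number as a block, gave 3 and 7 calls, 1 of them higher. Without the shallow ebax-1(tm2321); mir-43(M3) replicate 2 or replicate 1, 1 member was called in M3, and without replicate 3, 6 were. Without ebax-1(+) replicate 1 or 3 of M3 there were 4 and 1. In M1 no member was called without ebax-1(tm2321) replicate 1 or 2, and 1 without replicate 3 or without ebax-1(+) replicate 1 or 2. The M2 call was lost without ebax-1(tm2321) replicate 1 or 2 or ebax-1(+) replicate 3, and the call with unedited mir-43 without ebax-1(tm2321) replicate 1. Without ebax-1(+) replicate 2 of M2, or replicate 2 or 3 with unedited mir-43, 2 members were called. The effect of ebax-1 differed from that with unedited mir-43 for 0 members in M1, M2 and M3 (edgeR interactions, 0% of all strands in each, with 2, 4 and 2 members at unadjusted p under 0.05). For mir-43*, and for mir-42* in M2 and M3, these interactions rest on counts at or near 0.

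Summed over members, the pool was lower without ebax-1 in this experiment. It was 0.911% ± 0.0602 (n = 2), against 1.23% ± 0.164 (n = 3), with unedited mir-43 and 0.909% ± 0.0676, against 1.12% ± 0.0672 (SD, n = 3 each), with M3, in both cases without overlap. With M1 it was 0.983% ± 0.0874, against 1.08% ± 0.0652, and with M2 0.976% ± 0.0394, against 1.11% ± 0.0980, and these overlapped. The mean difference over the 4 strains was −0.193 percentage points (exact permutation p = 0.000375, two-sided, 80000 arrangements), and −0.133 with the guides of the 22 left out of the total, which moves it up by construction.

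Few passenger strands were called between the edited strains and wild type. mir-43* of the unedited hairpin, which the edited strains do not encode, was at 15.0, 29.1 and 17.0 CPM in wild type and at 0 in all edited libraries, and it made the single call of M1 against wild type. M2 and M3 had 0 members higher and 2 lower, the other being mir-42*, from the neighbouring hairpin upstream of mir-43. The shares of all strands called higher and lower were 0.435% and 0.435% in M1, 2.17% and 1.74% in M2 and 1.3% and 1.74% in M3. All strands tested here include the edited and unedited mir-43 entries, which differ between these strains through the edits themselves. The shares are therefore not a plain background. mir-42* had 1.19, 1.34 and 1.43 CPM in M2 and 0, 0 and 0.308 CPM in M3, against 29.4, 24.8 and 16.7 CPM in wild type. In M1 it had 21.9, 22.1 and 15.5 CPM, which overlapped wild type. The guide mir-42 was likewise at 17.9, 5.15 and 90.7 CPM in M2 and 1.36, 10.9 and 29.4 CPM in M3, against 1202, 2336 and 3393 CPM in wild type. M2 libraries counted 728, 772 and 729 CPM of a mir-42 entry named for a base change, which stayed under 12 CPM in M3 and under 2 CPM in wild type. mir-44*, downstream of mir-43, had 49.8, 28.9 and 44.0 CPM in M2 and 23.2, 57.3 and 27.4 CPM in M3, against 43.6, 61.6 and 44.0 CPM in wild type, and was not called. Without wild-type replicate 2 the M1 call was lost and 1 call was left in each of M2 and M3. Without wild-type replicate 3, 5 members were called in M2.

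The germline comparison set glp-4(bn2) adults against gravid adults. Temperature, hours on food, embryo content and the source of the libraries differ in the same way and cannot be told apart from glp-4(bn2). With ebax-1(+), 9 of 80 tested members were higher and 8 lower in glp-4(bn2) adults (5.91% and 13.2% of all strands). With scaling by total counts the split was 7 and 10, and DESeq2 called 15 and 11. Without wild-type gravid replicate 1 a single member was called, without replicate 2, 11, and without glp-4(bn2) replicate 1 or 2, 4 and 3. With ebax-1(tm2321), 11 were higher and 8 lower (6.82% and 10% of all strands). Without gravid ebax-1(tm2321) replicate 1, 4 were called, and without glp-4(bn2); ebax-1(tm2321) replicate 1 or 2, 7 and 1. The 2 contrasts use different libraries.

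All 6 strands of the mir-35–41 cluster fell in glp-4(bn2) adults with ebax-1(+) and 5 of 6 with ebax-1(tm2321), with medians of −5.22 and −4.29 on the log2 scale (−0.14 and 0.05 over all strands). mir-38* had 2.63 and 3.25 CPM in glp-4(bn2) adults, against 145 and 64.5 CPM in gravid adults (log2 fold change −4.99 ± 0.83). With ebax-1(tm2321) it had 7.28 and 18.0 CPM, against 285 and 64.2 CPM (−3.59 ± 0.75). mir-39* was at 0.138 and 0 CPM in glp-4(bn2) adults, against 89.2 and 21.8 CPM in gravid adults. The cluster made up 0.117% of the passenger pool in glp-4(bn2) controls.

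Other strands were higher in glp-4(bn2) adults. mir-246* had 34.1 and 33.3 CPM in glp-4(bn2) adults, against 2.17 and 1.80 CPM in gravid adults, and its guide was not called. mir-65* had 305 and 312 CPM in glp-4(bn2) adults, against 42.5 and 36.9 CPM in gravid adults (guide 0.48 on the log2 scale, not called). mir-48* had 428 and 397 CPM, against 154 and 111 CPM, and mir-81* (2.78) and mir-1020* (2.51) rose too. mir-232* (−1.89) and mir-55* (−1.53 on the log2 scale) fell.

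With ebax-1(tm2321), let-7* had 107 and 174 CPM in glp-4(bn2) adults, against 3.81 and 6.26 CPM in gravid adults (log2 fold change 4.93 ± 0.70). With ebax-1(+) it had 6.23 and 27.4 CPM, against 2.45 and 2.78 CPM, which did not pass (2.77 ± 0.66, edgeR adjusted p = 0.0138). lin-4* had 261 and 381 CPM, against 51.3 and 26.1 CPM, with ebax-1(tm2321), and 29.1 and 77.8 CPM, against 31.9 and 24.4 CPM, with ebax-1(+). The difference between the contrasts was tested as an interaction and passed for 0 members (0.455% of all strands, 4 members at unadjusted p under 0.05, the lowest edgeR adjusted p being 0.194 for lin-4*). mir-59* rose by 2.46 and mir-48* by 2.11 on the log2 scale with ebax-1(tm2321).

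**Figure D5:**
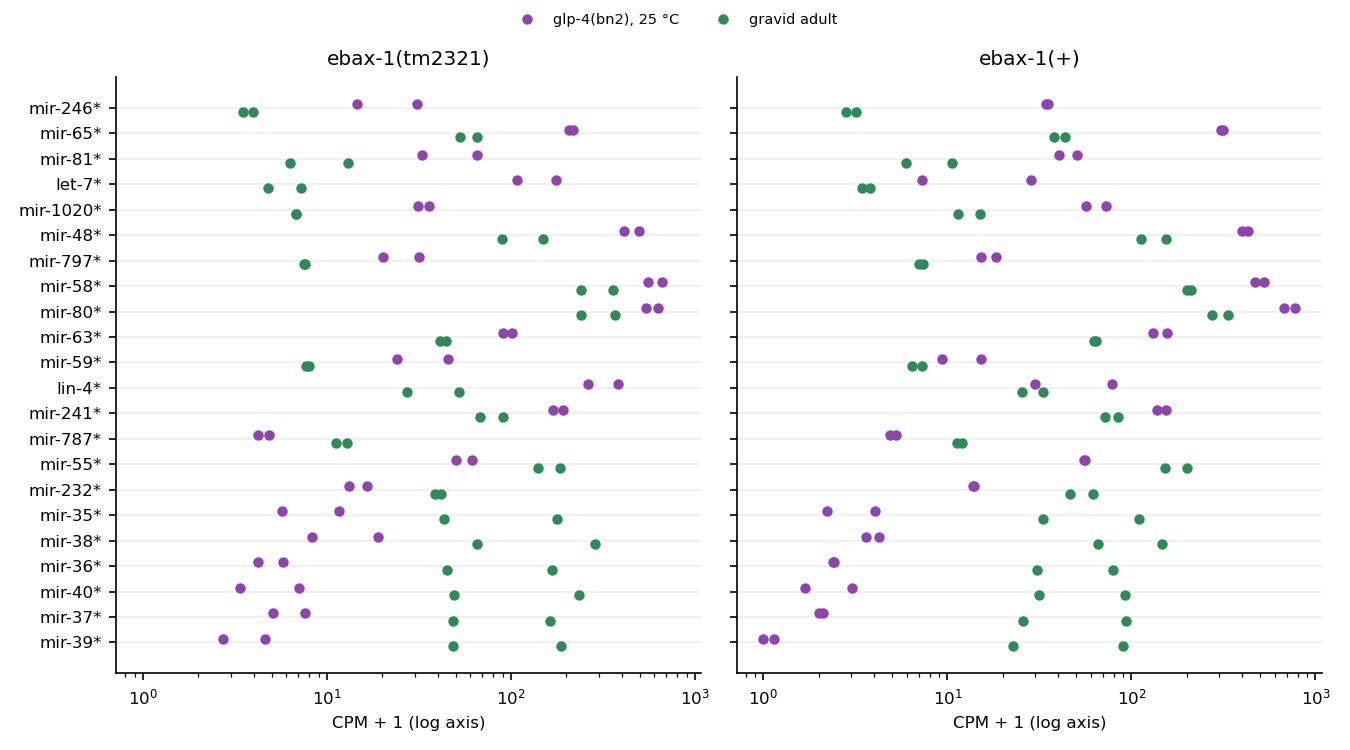
CPM + 1 on a log axis (horizontal) of the 22 passenger strands called in either contrast, with glp-4(bn2) adults in purple and gravid adults in green, for ebax-1(tm2321) on the left and ebax-1(+) on the right, 1 point per library. In the 6 bottom rows, mir-35* to mir-40*, the glp-4(bn2) points lie left of the gravid points in both panels, and in the top row mir-246* is at 34.1 and 33.3 CPM in glp-4(bn2) controls, against 2.17 and 1.80 CPM in gravid wild type.

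The summed share did not separate the adults. It was 0.768% ± 0.0295 in glp-4(bn2) and 0.818% ± 0.182 in gravid adults with ebax-1(+), and 0.768% ± 0.0223 and 0.794% ± 0.142 with ebax-1(tm2321) (SD, n = 2 each). The mean difference of −0.0383 percentage points gave p = 0.611, where the smallest that the exact permutation test over 36 arrangements allows is 0.0556.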

How the data were processed

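Small RNA libraries were counted by the authors, who trimmed reads with cutadapt (version not given in the sources used here), assigned them to a curated miRNA list by exact match of a 19-nt prefix and removed spike-in RNAs. The deposited values are raw read counts per strand, whole and at least 0 in all 59 libraries, and no column was left unmapped. The piRNA table was not used. Sequences are not shown.

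CPM were computed per total miRNA counts. Counts of all strands were tested with edgeR 4.0.16 in R 4.3.3 (TMM, quasi-likelihood F-test, Benjamini-Hochberg adjustment over all strands tested, threshold 0.01), keeping strands whose CPM + 1 averaged 5 or more over the controls. Strand ratios were tested with limma 3.58.1 and summed shares with exact permutation tests, two-sided for differences. DESeq2 1.42.0, total-count scaling, no filter, fits with more or fewer libraries, other pseudocounts, the replicate block and leaving out libraries were the alternatives. Scripts were tested on simulated data. Python 3.11.15, numpy 2.4.6, pandas 2.3.3 and matplotlib 3.10.9 made tables and figures. Hairpin positions come from the WBcel235 annotation.

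The members and the lists of hairpins (clusters, families, tissues, timing, stress and ageing, mirtrons) were chosen with earlier results of these data known. Named are the 10 most abundant members, up to 5 per direction and comparison with the largest change among those that passed without overlap, partners of the 22 EBAX-1-sensitive guides, those with more counts than their guide, the 5 largest strand-ratio spans, and up to 4 members of a list. mir-46*, mir-254* and mir-787*, which did not pass over stages, and the strands of the interaction were named as the few outside a count.

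Replicate numbers were taken to pair libraries where all 3 same-numbered pairs correlated over 0.1 in their deviations from group means. Comparisons with 2 pairs, those of the time course among them, could not meet this rule. The correlation for ebax-1(tm2321) in gravid adults was 0.461. For gravid adults, as for the other comparisons, the replicate block was fitted only as an alternative, whose counts are given below where they moved. The rule held for M3 against wild type (0.259 to 0.687) and for ebax-1 in M2 (0.147 to 0.175) and M3 (0.201 to 0.423), not for M1 (0.0375 to 0.422) or for M1 and M2 against wild type, and no label names a shared batch. Neighbouring stage comparisons, and the 3 edits against wild type, share libraries.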

Additional observations from a re-analysis of the deposited data

Results flagged for a closer look

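The effect of ebax-1(tm2321) on mir-53* differed between stages (edgeR interaction over the 8 stages, adjusted p = 0.00252), with lower values in the mutant in late embryos, L1 and L2 larvae and higher values at the other stages. In late embryos it had 60.5 and 54.1 CPM in the mutant, against 77.4 and 72.2 CPM in wild type, with no overlap. Gravid adults overlapped, with 54.5 and 35.6 CPM in the mutant and 40.5 and 31.8 CPM in wild type. The guide mir-53 was not called in L3 larvae (0.03 on the log2 scale).

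The passenger entries of the edited mir-43 hairpins, which are outside the 127 members, were counted in the strains that encode them. miR-43(M2)* reached 59.8 CPM and was present in all 6 libraries of its strains, with 51.3, 49.4 and 52.2 CPM in ebax-1(tm2321); mir-43(M2) and 59.8, 43.2 and 51.3 CPM in mir-43(M2). miR-43(M3)* reached 41.4 CPM, with 41.4, 29.7 and 31.3 CPM with ebax-1(tm2321) and 24.0, 40.3 and 23.8 CPM without. miR-43(M1)* reached 9.36 CPM but was at 0 in 4 of its 6 libraries. It had 7.77, 0 and 0 CPM with ebax-1(tm2321) and 9.36, 0 and 0 CPM with ebax-1(+), so that it was counted in replicate 1 of each genotype alone, which was not examined further.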

How the results depend on the processing

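No called member value changed sign in any of 2735 recomputed values, of which 623 no longer passed. Of 336 recomputed counts and shares, 235 were graded as holding. That grade took in counts near the main one and share differences of the same sign and outcome, so the values were not all identical. DESeq2 called 4 members in ebax-1(tm2321) worms at L1, 7 at L2, 6 at L3 and 6 at L4, 4 in glp-4(bn2) adults and 1 with ju699. It called 26 in the glp-4(bn2) contrast with ebax-1(+), 0 and 1 in M1 and M3 against wild type, 6, 3 and 7 for ebax-1 with unedited mir-43, M2 and M3, 10 averaged over stages and 20 for the interaction with stage. Scaling by total counts gave 15 calls in early and 29 in late embryos, 2 at L1, 1 at L2, 1 at L3 and 2 for the interaction. Without the filter on low counts 7 were called in L2 larvae and 0 in M2. One fit of all 32 libraries gave 0 in early and 0 in late embryos, 2 at L1, 7 at L2, 1 at L3, 7 at L4, 1 in gravid and 6 in glp-4(bn2) adults. Most of these were other members than in the main fits. Of the ebax-1(tm2321) calls made stage by stage, 3 still passed in that fit and 34 did not. With only 2 stages fitted, 14 were called between L4 and gravid adults.

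With the replicate block, 9 members were called in ebax-1(tm2321) early embryos, 6 at L1, 8 at L2, 9 at L3, 3 in glp-4(bn2) adults, 4 with unedited mir-43, 5 in M1, 3 in M2, 7 in M3 and 3 averaged over stages with the block within stage. No label ties the same-numbered libraries of the other comparisons together. The study does scale wild type to the mutant of the same replicate when it estimates the fraction of miRNAs degraded. The block moved no other count of calls by over 1.5 times.

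Leaving out 1 library at a time gave 0 to 16 calls in early and 3 to 9 in late embryos, 0 to 3 at L1, 0 to 6 at L2, 0 to 10 at L3, 0 to 1 at L4, 0 to 1 in gravid and 2 to 13 in glp-4(bn2) adults. Between wild-type stages in order it gave 21 to 28, 45 to 50, 15 to 17, 15 to 16, 17 to 21 and 34 to 40. The glp-4(bn2) contrasts ranged over 1 to 11 with ebax-1(+) and 1 to 16 with ebax-1(tm2321), M1, M2 and M3 against wild type over 0 to 1, 1 to 5 and 1 to 2, and ebax-1 with unedited mir-43, M1, M2 and M3 over 0 to 2, 0 to 2, 0 to 2 and 1 to 6. Leaving out a stage gave 3 to 9 for the averaged effect, and leaving out a library gave 73 to 77 pairs called for the strand ratio.

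For the summed share, the ebax-1 difference over the 8 stages was 0.183 percentage points with the 22 guides out of the total, −0.00105 without the most abundant strand, and −0.00319 to 0.0289 without 1 library. The glp-4(bn2) difference was 0.0469 without it and −0.103 to 0.0259 without 1 library, positive without replicate 1 of either gravid genotype. These causes were not tested.

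With 2 libraries a group, spread is known poorly and small changes are missed. A strand at 5 CPM has few counts in the shallowest libraries, and spike-ins were removed before deposit, so absolute changes of the whole pool were not measured.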
